A study of Rattus norvegicus with 6 samples.

Results

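Voltage-gated calcium channel subunits were examined in spinal cultures grown on carbon nanotubes. The genes were chosen by name, from the gene symbols of the array's probe annotation, with earlier results of these data known. They were 10 of the 14217 genes measured: the pore-forming subunits Cacna1a, Cacna1b, Cacna1c, Cacna1d, Cacna1g and Cacna1h, the auxiliary subunit Cacna2d1, and the beta subunits Cacnb2, Cacnb3 and Cacnb4. All 10 had at least 1 probe set, that is, a group of array probes read together as 1 value. Together they had 21 probe sets that are paired with a single gene, and 6 genes had more than 1. Where a gene had several, the brightest by its mean over the 6 arrays is called leading and stands for the gene.

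The 3 CNT cultures were dissociated spinal cords of newborn rats, postnatal days 1 to 4, plated on glass coverslips covered with a film of multiwalled carbon nanotubes. The 3 control cultures were the same kind of cells on polyornithine-coated coverslips. Both were kept in a medium with horse serum and nerve growth factor, and after 8 days in vitro their RNA was extracted and hybridized to 1 Affymetrix rat genome array per culture. The strain is Sprague-Dawley by the labels and Wistar by the methods, and the cultures hold glia and other cells beside the neurons. In RNA from such mixed cultures, fewer cells of a type and less RNA per cell cannot be told apart.

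Voltage-gated calcium channels open when the membrane is depolarized and let calcium into the cell, where it triggers transmitter release, contraction and gene expression. The pore-forming subunit sets the channel type. Cacna1a forms P/Q-type and Cacna1b N-type channels, which drive release at presynaptic terminals, also in the spinal cord. Cacna1c and Cacna1d form L-type channels, found on cell bodies and dendrites and, for Cacna1c, in smooth muscle. Cacna1g and Cacna1h form T-type channels, which open at more negative potentials and shape firing. Beta subunits bind the high-voltage-activated pore inside the cell and Cacna2d1 outside it, and both help bring it to the membrane. Cacna2d1 is the target of the drug gabapentin.

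The bases just upstream of an annotated transcription start are given for Cacna2d1, Cacnb3 and Cacna1c. These are the 3 subunits with the lowest fold changes in CNT cultures. Each sequence holds the 250 bases before a start, on the gene's strand in the rat build GRCr8 of RefSeq, and capitals mark GC boxes (GGGCGG, or CCGCCC on the other strand). Cacna2d1 has 3 annotated starts, and the first listed is shown. These need not be a gene's outermost start. The Cacnb3 window lies inside the annotated gene, which begins at base 131663810. The Cacna2d1 and Cacna1c windows reach into their annotated genes.
Cacna2d1 (chr4:20330148-20330397, minus strand): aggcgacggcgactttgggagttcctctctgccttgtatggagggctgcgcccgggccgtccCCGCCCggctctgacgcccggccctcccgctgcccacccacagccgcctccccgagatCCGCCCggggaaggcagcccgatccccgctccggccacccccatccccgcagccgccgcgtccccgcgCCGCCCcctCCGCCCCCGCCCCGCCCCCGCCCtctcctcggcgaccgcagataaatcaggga
Cacnb3 (chr7:131666301-131666550, plus strand): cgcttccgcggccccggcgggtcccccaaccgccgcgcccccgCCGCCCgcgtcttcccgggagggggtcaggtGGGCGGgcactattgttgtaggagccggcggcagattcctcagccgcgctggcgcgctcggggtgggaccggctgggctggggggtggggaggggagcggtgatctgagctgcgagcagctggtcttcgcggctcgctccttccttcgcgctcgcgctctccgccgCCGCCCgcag
Cacna1c (chr4:154051749-154051998, minus strand): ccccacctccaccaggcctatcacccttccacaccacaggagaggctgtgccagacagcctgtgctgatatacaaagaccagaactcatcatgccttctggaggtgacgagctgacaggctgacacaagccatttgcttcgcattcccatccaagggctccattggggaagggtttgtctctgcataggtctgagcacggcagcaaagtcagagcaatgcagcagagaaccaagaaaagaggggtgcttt

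The first window held 7 GC boxes, overlapping ones counted apart, the Cacnb3 window 3 and the Cacna1c window none. In all, 7 of the 10 genes had a promoter window, and 6 of these held a GC box, against 32.4% of 27457 rat promoter windows of the same length. The Cacna1c window had 54.4% G and C and 3 CpG, where the medians over all windows were 52.0% and 6. The windows of the other 6 genes had 72.0% to 88.8% G and C. None of the 7 windows held a TATA box (TATAAA or TTTATA), which 13.1% of all windows did. These matches describe letters in the windows only.

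No calcium channel subunit passed the comparison of CNT with control cultures. Across all 14217 genes, limma with Benjamini-Hochberg adjustment called 0% higher and 0% lower in CNT cultures at an adjusted p of 0.05, and each of the 10 subunits had an adjusted p of 0.999. At an unadjusted p under 0.05 limma gave 2.41% of all genes higher and 0.71% lower, and none of the 10. All 3 CNT arrays exceeded all 3 control arrays in 5.94% of all genes and fell short of all 3 in 2.05%, and the groups overlapped for each of the 10. The log2 fold change was negative for 6 subunits and positive for 4, with a median of -0.14 beside 0.03 over all genes. The 14 other measured genes named as subunits of the family had a median of 0.09, with 11 positive and 3 negative. For the 10, leaving out CNT 3 gave a median of -0.0048, control 2 one of -0.019 and control 3 one of -0.23. The smallest two-sided p that an exact permutation of 3 arrays against 3 allows is 0.1.

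**Figure D1:**
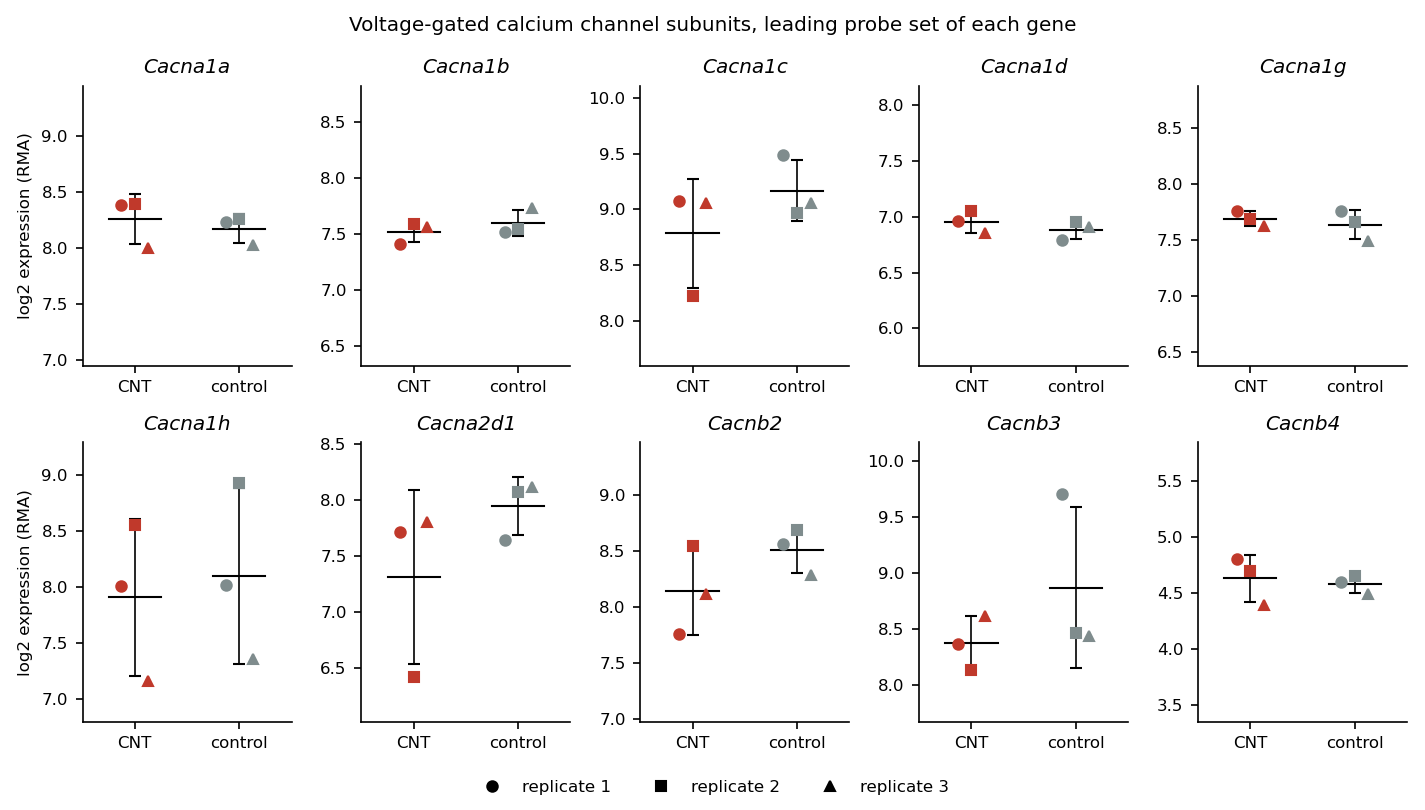
Log2 expression of the leading probe set of each of the 10 subunits, with CNT cultures in red, control cultures in grey and a symbol for each replicate number. Horizontal lines are means, bars are SD (n = 3 each), and every panel spans the same number of log2 units. The groups overlap in all 10 panels, and the spread is widest for Cacna1h, Cacna2d1 and Cacnb3.

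The pore-forming subunits of the presynaptic channels gave close values on both substrates. Cacna1a had a log2 expression of 8.39, 8.39 and 8.01 in CNT cultures 1, 2 and 3, and of 8.24, 8.26 and 8.03 in control cultures 1, 2 and 3. Culture 3 was the lowest on each substrate. The log2 fold change was 0.09, with a standard error (SE) of 0.14 and a 95% interval from -0.26 to 0.44. Cacna1b was at 7.41, 7.59 and 7.56 in CNT cultures and at 7.52, 7.55 and 7.74 in control cultures. Its log2 fold change was -0.08 (SE 0.11, 95% interval from -0.34 to 0.19). For both genes the difference was smaller than the SD between the cultures of either group. The intervals leave room for no more than 0.44 log2 in either direction. A 2-fold difference in the array values of these 2 probe sets lies outside them. This bounds the array values and not the transcripts. Cacna1b lay in the dimmest 30% of genes, and Cacna1a was just above that cut of 8.06 log2. Whether such values read transcript or background was not tested.

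Of the L-type subunits, Cacna1d had a narrow profile and Cacna1c a wide one. Cacna1d, which in neurons supports pacemaking, was at 6.96, 7.05 and 6.85 in CNT cultures and at 6.79, 6.95 and 6.91 in control cultures. The 6 values span 0.26 log2, and the log2 fold change was 0.07 (SE 0.10, 95% interval from -0.18 to 0.32). Cacna1c was at 9.07, 8.23 and 9.06 in CNT cultures and at 9.48, 8.97 and 9.06 in control cultures. A single CNT culture, the second, stood below the rest, and control 1 was the highest of the 6. The log2 fold change of Cacna1c was -0.38 (SE 0.27, 95% interval from -1.05 to 0.28). It was -0.10 without CNT 2 and 0.05 without control 1 and CNT 2 together.

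The T-type subunits likewise gave a narrow profile, of Cacna1g, and a wide one, of Cacna1h. Cacna1g was at 7.76, 7.69 and 7.62 in CNT cultures and at 7.75, 7.66 and 7.49 in control cultures, a log2 fold change of 0.05 (SE 0.11, 95% interval from -0.21 to 0.31). Cacna1h was at 8.01, 8.56 and 7.16 in CNT cultures and at 8.02, 8.93 and 7.36 in control cultures. It had the widest range of the 10 subunits, 1.77 log2, and that range lay within the groups and not between them: culture 2 was the highest and culture 3 the lowest on both substrates. The log2 fold change of Cacna1h was -0.19 (SE 0.50, 95% interval from -1.41 to 1.02). Its sign turned without control 2 (0.22) or without CNT 3 (0.18), and leaving out control 3 gave -0.56.

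The auxiliary subunit Cacna2d1 had the lowest fold change of the 10. It was at 7.72, 6.42 and 7.80 in CNT cultures and at 7.65, 8.07 and 8.12 in control cultures. CNT 2 stood more than a log2 unit below every other culture, and CNT 1 and CNT 3 lay above control 1. The mean was 7.31 ± 0.78 in CNT cultures and 7.95 ± 0.26 in control cultures (SD, n = 3 each). This is a fold of 0.644 and a log2 fold change of -0.63 (SE 0.39, 95% interval from -1.58 to 0.32). The log2 fold change was -0.19 without CNT 2 and -0.88 without CNT 3.

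Of the beta subunits, Cacnb3 and Cacnb2 had negative fold changes and Cacnb4 a fold change near 0. Cacnb3 was at 8.36, 8.13 and 8.62 in CNT cultures and at 9.70, 8.47 and 8.44 in control cultures. Control 1 stood above the other 5 cultures, among which the groups overlapped. The log2 fold change was -0.50 (SE 0.36, 95% interval from -1.38 to 0.39), and it was -0.08 without control 1 and 0.04 without control 1 and CNT 2. Cacnb2 was at 7.76, 8.55 and 8.11 in CNT cultures and at 8.56, 8.68 and 8.28 in control cultures. CNT 1 and CNT 3 lay below all the control cultures and CNT 2 among them. Its log2 fold change was -0.37 (SE 0.22, 95% interval from -0.91 to 0.17). Leaving out CNT 1 gave -0.18, leaving out CNT 2 gave -0.57, and leaving out both control 1 and CNT 2 gave -0.55. Cacnb4 was at 4.80, 4.70 and 4.40 in CNT cultures and at 4.60, 4.65 and 4.49 in control cultures, with a log2 fold change of 0.05 (SE 0.13, 95% interval from -0.28 to 0.37).

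**Figure D2:**
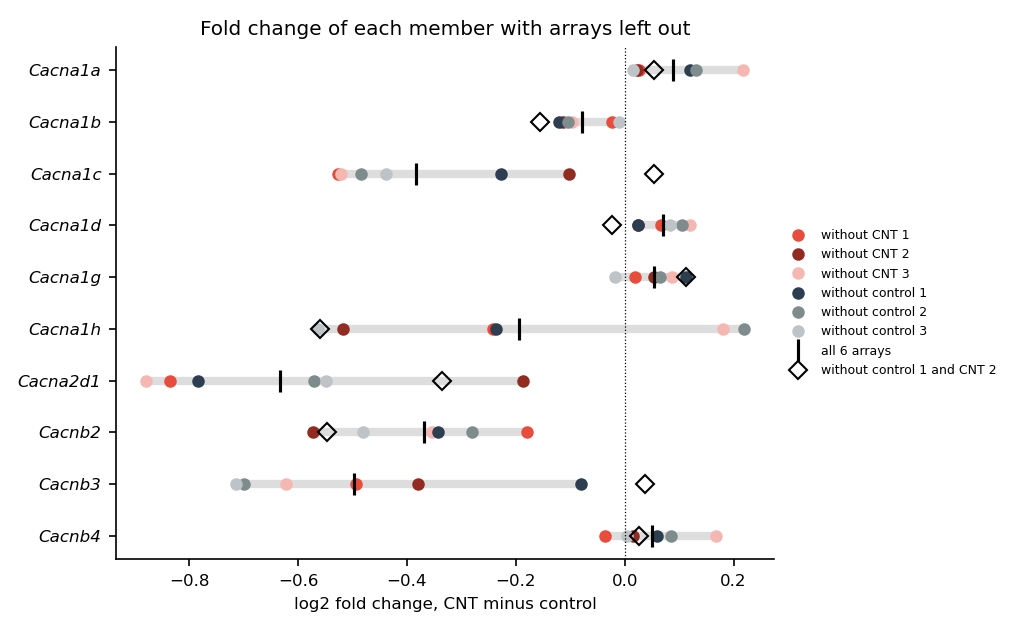
Log2 fold change (CNT minus control) of the 10 subunits with all 6 arrays (black bar), without each array in turn (filled points) and without control 1 and CNT 2 together (open diamonds). Of the single arrays, CNT 2 moves Cacna2d1 nearest to 0 (-0.19 without it) and control 1 moves Cacnb3 nearest to 0 (-0.08 without it), while Cacna1h lies on both sides of 0.

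The other probe sets of a gene did not always repeat its leading one. Of the 21 probe sets, 12 had a negative and 9 a positive log2 fold change, and none had an unadjusted p under 0.05 in limma fitted on every probe set. The CNT arrays exceeded all control arrays in 1 of the 21 and fell short of all in none, against 5.53% and 2.43% of the 20826 single-gene probe sets. That one reads Cacna1a and was at 5.82, 5.88 and 5.81 in CNT cultures and at 5.69, 5.69 and 5.68 in control cultures, a log2 fold change of 0.15 (SE 0.08). The 4 probe sets of Cacna1a beside the leading one had log2 fold changes of -0.29, 0.15, 0.04 and 0.01, from the higher mean to the lower. The signs thus differed between its probe sets. But those 4 were dim, with means from 4.96 to 5.84 log2 in CNT cultures, so the signs give no direction for the gene.

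The wide profiles were each seen by a single probe set. The second probe set of Cacna1c was at 6.19, 6.38 and 6.22 in CNT cultures and at 6.22, 6.26 and 6.11 in control cultures. CNT 2, the lowest culture by the leading probe set, was the highest by this one. The second probe set of Cacna1h was at 5.77, 5.77 and 5.67 in CNT cultures and at 5.80, 5.73 and 5.69 in control cultures, a range of 0.13 log2 where the leading one spans 1.77. Cacna2d1 and Cacnb3 have no second probe set. The second probe set of Cacnb2 was at 6.41, 6.50 and 6.21 in CNT cultures and at 6.97, 6.62 and 6.50 in control cultures. Its log2 fold change was -0.32 (SE 0.16), near that of the leading one, with CNT 2 level with control 3, and the third probe set gave -0.03 (SE 0.09). Over 11 exact permutation tests of a probe set against its gene's leading one, two-sided, the smallest p was 0.1, the smallest such a test can give (adjusted p = 0.44).

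**Figure D3:**
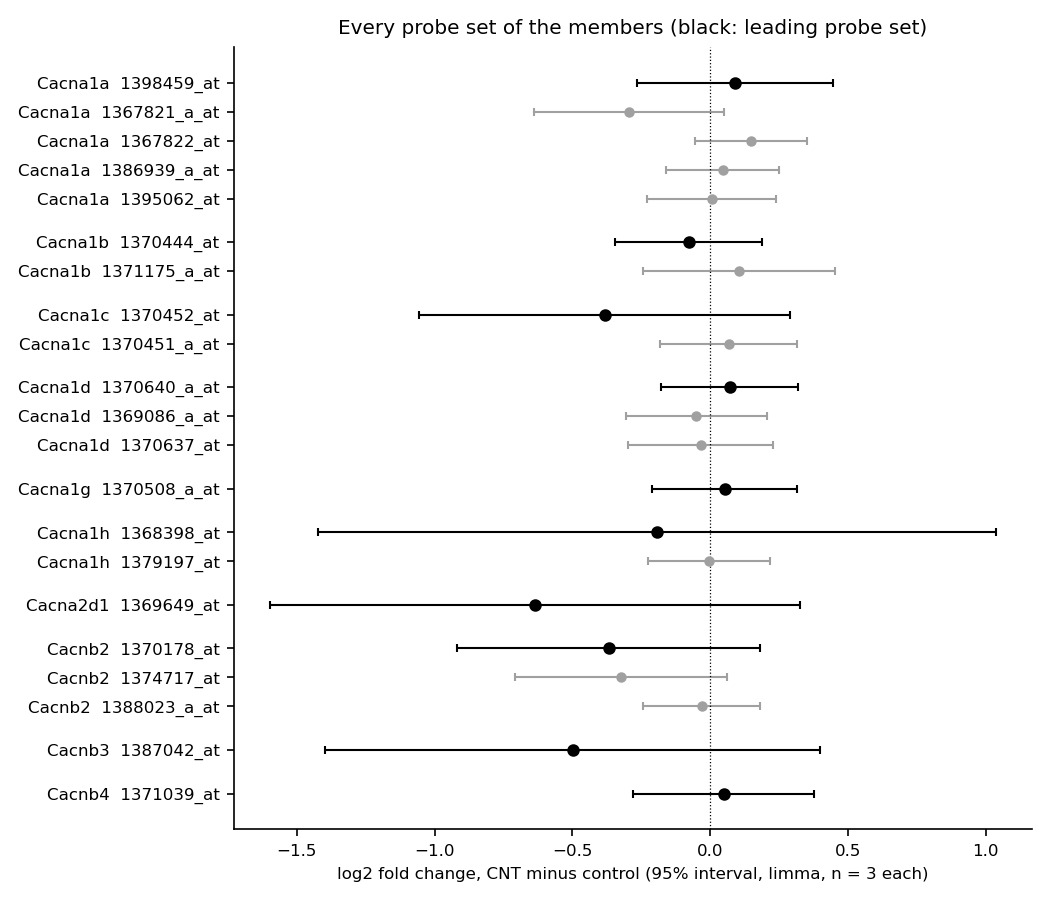
Log2 fold change (CNT minus control) with its 95% interval from limma for the 21 single-gene probe sets of the 10 subunits, fitted on every probe set by itself (n = 3 each). Black points are the leading probe sets and grey ones the others. All 21 intervals hold 0, and the leading probe sets of Cacna1h, Cacna2d1 and Cacnb3 have the widest.

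The deposited values carry no detection call. The leading probe sets of 6 of the 10 subunits (Cacna1b, Cacna1d, Cacna1g, Cacna1h, Cacna2d1 and Cacnb4) lay in the dimmest 30% of genes, below a mean of 8.06 log2. Of all 21 probe sets, 17 were below that level. Whether the flat profiles of the dim ones read their transcripts or the background of the array was not tested.

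Lists of fibroblast and of muscle markers were on average lowest in CNT 2 and highest in control 1, as Cacna1c and Cacnb3 were. Cacna2d1 was also lowest in CNT 2 but highest in control 3. Cacna1h, the subunit of widest range, was highest in control 2 and lowest in CNT 3. A list score was taken as the mean, over the list's genes, of the log2 expression minus its mean over the 6 arrays. The score of 10 fibroblast markers was -1.15 in CNT 2, -0.05 in CNT 1 and 0.20 in CNT 3, and 0.19 to 0.49 in control cultures. Their mean log2 level was between 11.15 and 12.50 in CNT cultures and between 12.50 and 12.79 in control cultures. Cacna2d1 and Cacna1c were lowest in that same culture. The score of 10 smooth muscle and pericyte markers was -0.67 in CNT 2, -0.05 in CNT 1 and 0.12 in CNT 3, and 0.64, -0.14 and 0.10 in control cultures 1, 2 and 3. It was thus highest in control 1, where Cacnb3 and Cacna1c were highest too. All 10 fibroblast markers had negative log2 fold changes (median -0.57, none past limma's threshold), among them the matrix genes Fbln2 (-1.44) and Fbln5 (-1.21), and without CNT 2 the median was -0.17. Of the smooth muscle and pericyte markers 9 of 10 were negative (median -0.50), among them the actin-binding Tagln (-0.67), while the filament gene Des was at 0.22. Without control 1 this median was -0.16. The score of 8 skeletal muscle markers, 7 of them in the dimmest 30% of genes, was also lowest in CNT 2 (-0.17) and highest in control 1 (0.28).

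RNA quality differed between the same arrays. For beta-actin, the signal of the 3' probe set minus that of the 5' one was 0.92, 2.20 and 1.72 log2 in CNT cultures 1, 2 and 3, and 2.20, 0.62 and 0.66 in control cultures 1, 2 and 3. CNT 2 and control 1 had the largest differences, and CNT 3 the next. The weights that limma gave the arrays are lower where an array departs more from its group. They were 1.87, 1.36 and 0.47 in CNT cultures 1, 2 and 3, and 0.92, 1.04 and 0.88 in control cultures. The lowest weight was thus that of CNT 3. The part of these markers and of RNA quality in the subunits' values was not tested.

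**Figure D4:**
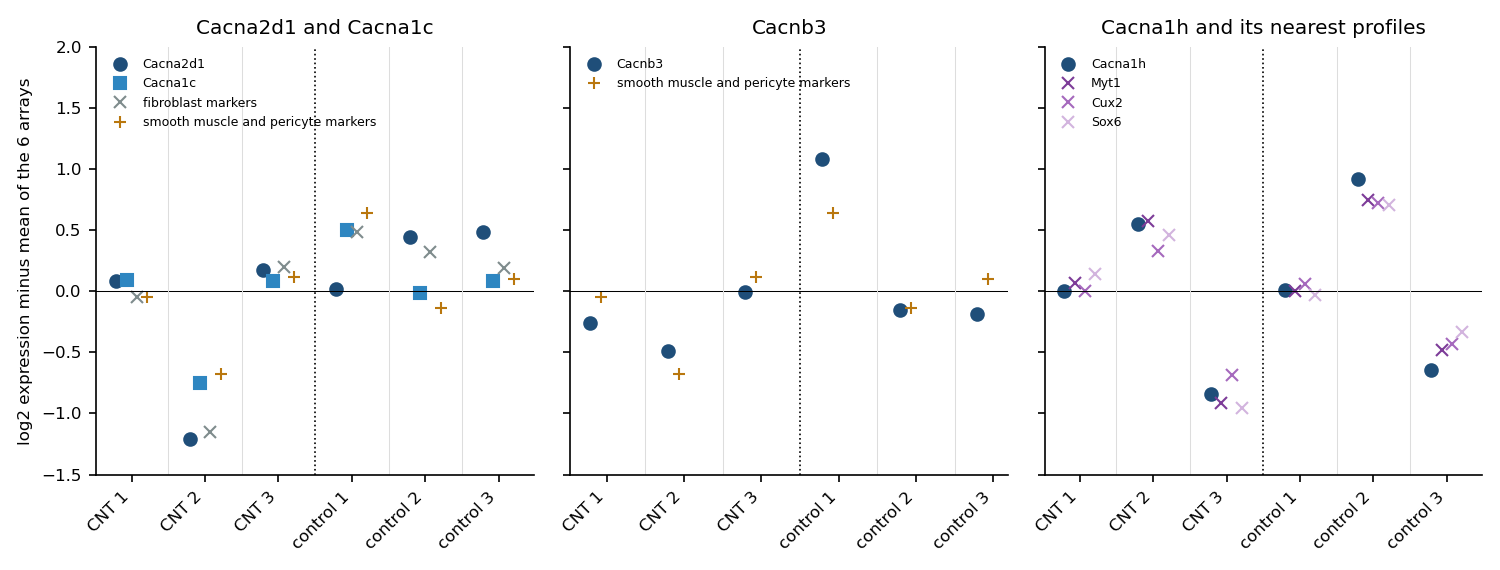
Log2 expression minus its mean over the 6 arrays, for each CNT and control array. The first panel shows Cacna2d1 and Cacna1c with the fibroblast and the smooth muscle and pericyte scores, the second Cacnb3 with the smooth muscle and pericyte score, and the third Cacna1h with the 3 genes of nearest profile. Cacna2d1, Cacna1c and both scores are lowest in CNT 2, and Cacna1h and its neighbours are highest in both cultures numbered 2 and lowest in both numbered 3.

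Markers of neurons and of other cell types were measured in both groups. All 15 neuron markers had a probe set, 4 of them (Rbfox3, Nefl, Nefh and Elavl4) in the dimmest 30% of genes, and their mean log2 level was 9.54, 9.53 and 9.26 in CNT cultures and 9.43, 9.67 and 9.41 in control cultures. They had log2 fold changes from -0.51 (Uchl1, a neuronal ubiquitin hydrolase) to 0.24 (the growth cone gene Gap43), with a median of -0.04. That median changed sign with the arrays used, at 0.12 without CNT 3, 0.056 without control 2 and -0.12 without CNT 1. Their score was 0.07, 0.05 and -0.22 in CNT cultures and -0.04, 0.19 and -0.06 in control cultures, so the groups overlapped. The median was -0.09 for 10 astrocyte markers (Fgfr3 -0.33 and S100b -0.24), 0.05 for 10 oligodendrocyte lineage markers (Mal 0.89 and Cspg4 0.22) and 0.22 for 11 microglia and macrophage markers (Cd68 0.42 and Tyrobp 0.38). It was 0.02 for 8 skeletal muscle markers (Acta1 -0.88 and Ckm 0.14) and 0.16 for 7 endothelial markers (Tie1 0.99 and Esam 0.24). With single arrays left out these medians ranged widely. The lowest and highest were -0.22 (without control 3) and 0.035 (without CNT 3) for astrocytes, and -0.092 (without CNT 1) and 0.42 (without CNT 3) for oligodendrocytes. They were 0.073 (without CNT 2) and 0.50 (without CNT 3) for microglia and macrophages, -0.060 (without control 2) and 0.043 (without control 3) for skeletal muscle, and 0.0050 (without CNT 2) and 0.18 (without CNT 3) for endothelium. The oligodendrocyte score was 0.50, 0.27 and -0.53 in CNT cultures 1, 2 and 3 and -0.10, 0.29 and -0.43 in control cultures 1, 2 and 3. It was lowest in both cultures numbered 3, where Cacna1h was lowest. The astrocyte score was lowest in the same cultures (-0.36 in CNT 3 and -0.16 in control 3), and the neuron score was lowest in culture 3 of each group, so this was shared by several marker lists. The part of these lists in the Cacna1h values was not tested. No gene of these lists passed limma over all genes.

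For the 3 subunits of widest range, the genes of nearest profile were those with the smallest root mean square difference from it, over the 6 arrays and after each gene's mean was taken off. For Cacna1h these were the transcription factor genes Myt1 (0.11 log2), Cux2 (0.16) and Sox6 (0.18). Myt1 was at 9.76, 10.27 and 8.78 in CNT cultures and at 9.70, 10.44 and 9.22 in control cultures, with the same order of cultures as Cacna1h within each group. For Cacna2d1 they were Col7a1 (0.16 log2), a collagen of anchoring fibrils, Cth (0.17), an enzyme of cysteine synthesis, and Pard6g (0.22), a cell polarity gene. Each of the 3 was lowest in CNT 2. For Cacnb3 they were Ldb2 (0.08 log2), a cofactor of LIM domain proteins, Kazald1 (0.10), a secreted protein, and Six4 (0.11), a homeobox factor. Each of these was highest in control 1.

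The other genes named as subunits of the family were mostly read by dim probe sets. Of 16 listed, 14 were measured, 11 with a positive and 3 with a negative log2 fold change between -0.15 and 0.21, with a median of 0.09, and none passed limma. In 4 of the 14 the CNT arrays exceeded all control arrays, beside 5.94% of all genes. These 4 were Cacng1, the gamma subunit of skeletal muscle channels, at 4.94, 5.07 and 4.95 in CNT and 4.78, 4.74 and 4.80 in control cultures, Cacna1f, the L-type subunit of the retina (log2 fold change 0.19), Cacng6 (0.18) and Cacng5 (0.13). Of the 14, 13 lay in the dimmest 30% of genes.

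Genes that regulate the channels or act beside them did not pass limma either. Of 12 measured regulators, 6 were positive and 6 negative, with a median of 0.04 (0.019 without control 3 and 0.079 without control 1). Rem1 and Rem2, small GTPases that inhibit the channels, gave 0.18 (SE 0.10) and 0.20 (SE 0.12). The CNT arrays of both exceeded all control arrays, beside 5.94% of all genes. Both lay in the dimmest 30% of genes, as did 8 of the 12 regulators. Rrad, of the same GTPase family, was at 0.34 and the calcium sensor Ncs1 at -0.29, with overlapping groups. The 15 genes of the presynaptic active zone and release machinery had a median of 0.02, between -0.010 without control 1 and 0.056 without CNT 3. Rimbp2, whose protein ties calcium channels to the active zone, was at 8.96, 9.29 and 8.38 in CNT cultures and at 9.55, 9.99 and 8.86 in control cultures. Culture 2 was the highest and culture 3 the lowest on each substrate, and the log2 fold change was -0.59 (SE 0.35). The vesicle sensor Syt1 was at 0.16 and the priming factor Unc13a at 0.17.

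Genes that store, extrude and bind calcium had medians of -0.04 (14 genes of intracellular stores), 0.05 (9 of extrusion) and 0.14 (13 buffers and calmodulin kinases). With single arrays left out, the median of the stores lay between -0.067 (without CNT 2) and -0.0035 (without control 3), and that of extrusion between -0.019 (without CNT 1) and 0.17 (without CNT 3). For the buffers and kinases, leaving out control 1 gave a median of 0.015, leaving out CNT 1 or CNT 2 gave 0.052 or 0.057, and leaving out control 2 gave 0.070. The store genes Atp2a3, Ryr3 and Itpr1 had log2 fold changes of 0.31, -0.46 and -0.16, and the extrusion genes Atp2b2, Slc8a1 and Slc24a3 of 0.29, 0.27 and -0.22. Among the buffers, Calb1 (calbindin) was at -0.46, Pvalb (parvalbumin) at 0.46 and Calb2 (calretinin) at 0.15, and the kinase gene Camk2a at 0.14. The 6 calcium-activated potassium channel genes had a median of 0.09 (0.050 without control 3 and 0.14 without control 1), with Kcnma1 at -0.45 and Kcnn3 at 0.14. Kcnn4, the channel of intermediate conductance known from microglia and other immune cells, was at 8.63, 9.04 and 8.92 in CNT cultures and at 6.67, 7.78 and 8.54 in control cultures. All its CNT arrays exceeded all control arrays, beside 5.94% of all genes, with a log2 fold change of 1.20 (SE 0.46, adjusted p = 0.999 from limma). The microglia and macrophage score was 0.29, 0.39 and -0.28 in CNT cultures 1, 2 and 3 and -0.57, 0.18 and -0.01 in control cultures 1, 2 and 3, lowest in control 1 as Kcnn4 was, and its part in that value was not tested.

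**Figure D5:**
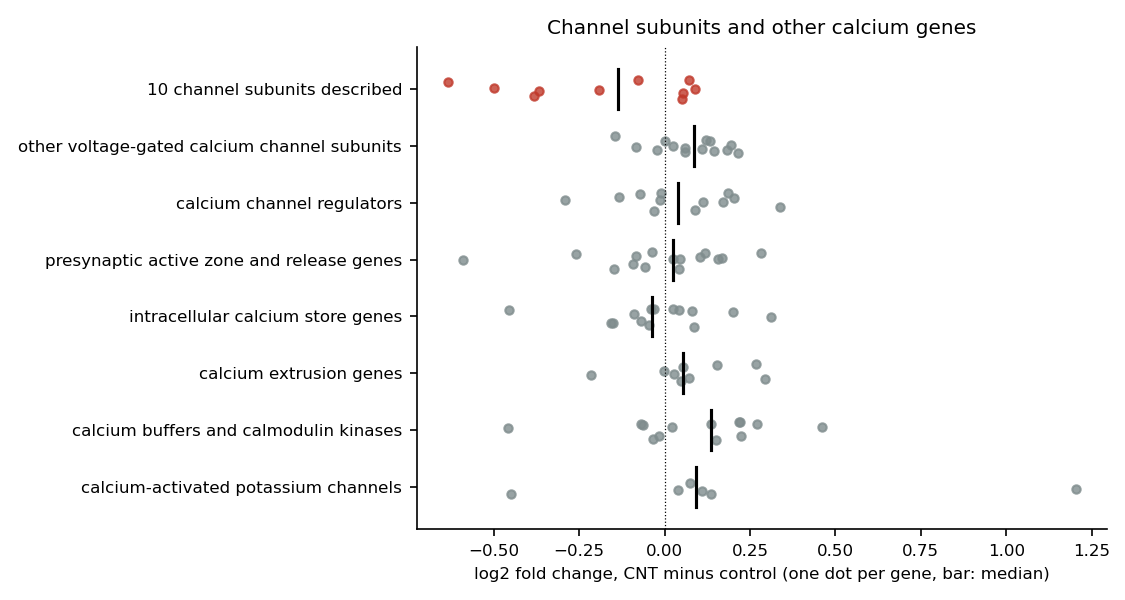
Log2 fold change (CNT minus control) of each measured gene, for the 10 channel subunits described (red) and 7 lists of other calcium genes (grey), with the median of each list as a black bar. The median is -0.14 for the 10 subunits and between -0.04 and 0.14 for the 7 lists, and the point at 1.20 is Kcnn4. One of the 7 lists holds the 14 other measured genes named as channel subunits, with a median of 0.09. The 10 and the lists were chosen with earlier results known, so the medians are descriptive only.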

How the data were processed

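Gene expression was measured with 1 Affymetrix rat genome array per culture, in 3 CNT and 3 control cultures, grouped by sample title. The deposited values are log2 expression, which the authors made with RMA (version not given in the sources used here) for the manufacturer's probe sets. RMA sets all arrays to one distribution, so a change shared by most genes would not be seen. The study's own analysis used EntrezGene custom files and the rank product, which was not run here because its error rate permutes genes.

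Of 31099 probe sets, 57 controls, 436 paired with several genes by the platform annotation and 9780 paired with none were left out. The remaining 20826 read 14217 genes, each represented by its brightest probe set. All genes were fitted together with limma 3.58.1 (lmFit and eBayes, R 4.3.3), without pairing, with Benjamini-Hochberg adjustment and a threshold of 0.05. The fit was first tried on simulated data with planted changes larger than any fold change of the subunits. That trial does not tell whether changes as small as theirs would be called. The labels call the samples biological replicates. The highest correlation between arrays was 0.994. Precision is limited by how few arrays there are.

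The 10 subunits and all gene lists were chosen with earlier results of these data known. Named were all 10 subunits, per calcium list up to 3 genes lowest in unadjusted p and the 1 that changed most, 2 of smallest p per marker list, and the 3 nearest profiles of the 3 subunits of widest range. Cacng5 and the 4 dim neuron markers were named after their values were seen. Alternatives changed the fit (trend and robust estimation, array weights, a replicate block), the summary of probe sets (their mean, or each alone), the scaling (quantile, median), the genes tested (without the dimmest 30%) or the arrays (each left out, or control 1 with CNT 2).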

Additional observations from a re-analysis of the deposited data

How the results depend on the processing

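No subunit passed limma under any of the 15 alternatives (smallest adjusted p over subunits and alternatives 0.751). Over all genes the alternatives called 0 in either direction, apart from 2 higher without control 3. That no subunit was called therefore says little about the subunits. Of 144 subunit values, 134 kept their direction. Many of these values could not turn. Trend and robust estimation, the replicate block, each probe set alone and the dim filter leave a fold change as it is. So does averaging for Cacna1g, Cacna2d1, Cacnb3 and Cacnb4, which have 1 probe set each. Averaging all probe sets of a gene gave log2 fold changes of -0.0012 for Cacna1a, 0.014 for Cacna1b and -0.0048 for Cacna1d. Without control 1 and CNT 2, the arrays of largest beta-actin difference, those of Cacna1c, Cacna1d and Cacnb3 became 0.054, -0.023 and 0.038. Cacna1c and Cacnb3 were highest in control 1 and lowest in CNT 2, so leaving these out could only raise their fold changes. For Cacna1d it was the reverse, so its fold change could only fall. The direction of these shifts therefore tells nothing about RNA quality. Leaving out each array in turn gave ranges that crossed 0 for Cacna1h (-0.56 to 0.22), Cacna1g (-0.018 to 0.11) and Cacnb4 (-0.035 to 0.17). It gave -0.88 to -0.19 for Cacna2d1, -0.53 to -0.10 for Cacna1c, -0.71 to -0.08 for Cacnb3 and -0.57 to -0.18 for Cacnb2. The median of the 10 subunits ranged from -0.23 to -0.0048. Over all genes, leaving out 1 array gave 0 to 2 genes higher, the 2 without control 3. The cause of these shifts was not tested. Same-numbered cultures did not all deviate together (correlations across genes of -0.13, 0.36 and 0.51 for numbers 1, 2 and 3), and CNT 1 correlated best with control 2 (0.68). The cultures were therefore not treated as pairs. But deviations from a mean of 3 arrays force some of these correlations below 0, so they do not settle the pairing. Whether equal numbers mark a shared culture series is not given in the sources used here. With the replicate block 0 genes were called, the fold changes stayed as they were, and the standard error of Cacna1h was 0.12, against 0.50 without it. The standard errors of Cacna1c and Cacnb2 were 0.17 each with the block, against 0.27 and 0.22. That of Cacna1d was 0.10 in both fits. The filter on dim genes left 4 of the 10 subunits.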
